A study of Mus musculus with 20 samples.

Results

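The subject is a set of 10 genes of the growth hormone pathway in mouse liver: Ghr, Stat5b, Socs2, Cish, Igf1, Igfals, Bcl6, Hsd3b5, Elovl3 and Cyp2d9. They were taken by gene symbol, with every probe of each symbol kept, which gave 16 probes of the 30146 in the deposited table and 10 of its 21450 symbols. The livers came from male Balb-C mice, 10-12 weeks old, that received Nafion byproduct 2 (PFESA-BP2), a fluorinated ether sulfonic acid, through a feeding needle once a day over 7 days. Each of 5 groups held 4 mice, with 1 library per mouse: vehicle control at 0 mg/kg, then daily doses of 0.03, 0.3, 3 or 6 mg/kg. The protocol names deionized water as the vehicle, whereas the titles of the control samples say DMSO, so which was given is not settled here. RNA from pieces of whole liver was measured with TempO-Seq, in which pairs of detector oligonucleotides are ligated on their target RNA, amplified and counted.

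Growth hormone binds its receptor, the product of Ghr, on hepatocytes and activates the kinase JAK2, which phosphorylates the transcription factor STAT5B. STAT5B then enters the nucleus and switches on genes for circulating growth factors, for feedback inhibitors of the same pathway and, in rodents, for enzymes that differ between male and female liver. In male mice growth hormone arrives in pulses, and the male-biased liver genes depend on those pulses.

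Levels below are in CPM, counts for every 1000000 counts of a library after scaling by the trimmed mean of M values. Changes are log2 fold changes with their standard errors (SE), and a change was called where the adjusted p of the edgeR quasi-likelihood test, corrected over all 14122 probes tested, was under 0.05. Of the 16 member probes 15 had enough counts to be tested, and each gene was represented by its probe of highest mean count, its main probe, which left 9 genes to test. At 6 mg/kg against control, 6 of these 9 genes were called: Ghr, Socs2, Igf1, Igfals and Hsd3b5 fell and Cyp2d9 rose. Over all genes tested by their main probe, 20.5% were called at this dose, 10.9% higher and 9.64% lower. The median log2 change of the 9 member genes was -0.85, beside -0.02 over all 10097 genes. At 0.03, 0.3 and 3 mg/kg 0 member genes were called by edgeR, DESeq2 or limma-voom (0, 1 and 0 had an unadjusted edgeR p under 0.05), while edgeR called 0%, 0% and 1.54% of all genes. In bulk tissue, fewer cells of a type and less RNA per cell cannot be told apart.

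**Figure D1:**
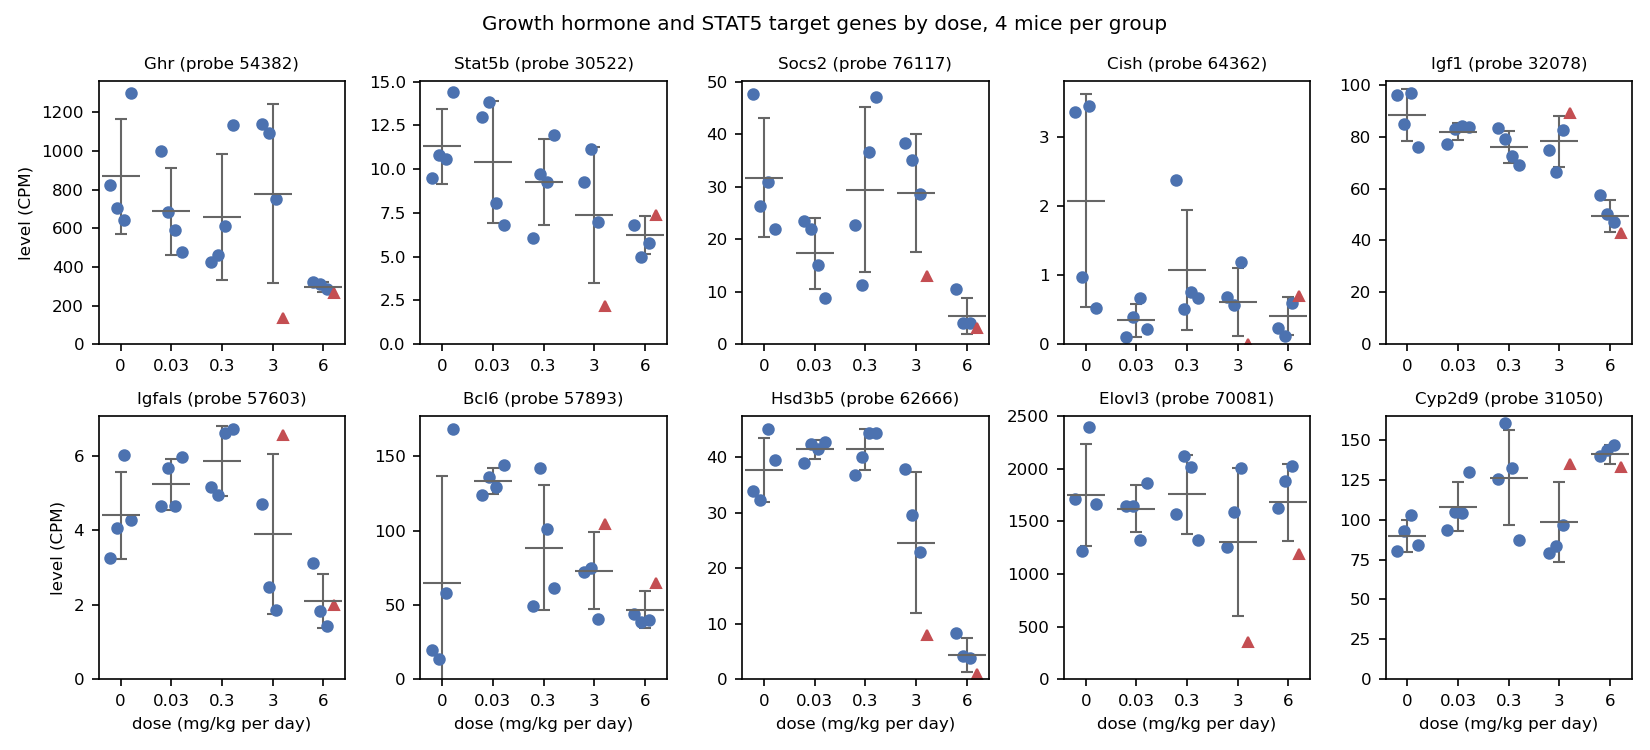
Level in CPM (vertical axes, linear and starting at 0) of the main probe of each of the 10 genes in every library, against dose in mg/kg per day with control at 0. Points are single mice, bars are the mean and SD of 4 mice (cut at 0), and triangles mark the libraries dose_3 replicate 4 and dose_6 replicate 4. The 4 libraries at 6 mg/kg lie below all controls for Ghr, Stat5b, Socs2, Igf1, Igfals and Hsd3b5 and above them for Cyp2d9. Of all tested probes, 26.8% showed such an absence of overlap in either direction.

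Library totals ran between 6823518 and 10310931 counts, so that 3 counts correspond to 0.251 to 0.510 CPM. The library dose_3 replicate 4 stood apart, with a mean correlation of 0.892 with the rest of its group, and dose_6 replicate 4 had 0.949, against at least 0.954 in the other 18. By the well names in the titles, plate row A held the control and 0.03 mg/kg libraries and row B those of 3 and 6 mg/kg; at 0.3 mg/kg replicate 4 was in row B and the others in row A, so plate row can be separated from dose through that group alone. Markers of hepatocytes were present throughout: the summed level of 7 of them was 14500 to 18400 CPM at 6 mg/kg and 23000 to 28800 CPM in control. At 6 mg/kg 3 of the 7 (Alb, Fgb and Serpina1a) were called lower and 0 higher, beside 9.64% of all genes called lower and 10.9% higher. The part of these markers in the results below was not tested.

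The letters that STAT5 is known to recognise, TTCNNNGAA, were searched on both strands of promoter windows from RefSeq (GRCm38.p6), each covering 250 bases before and 50 bases after an annotated start. Windows were at hand for 8 of the 10 genes, 13 windows in all. A match stood in 5 of these 13 windows, belonging to Cish, Igfals and Bcl6, and in 8.3% of all 32851 windows in the table. The narrower form TTCCNNGAA, which overlaps the first, was found in 4.81% of all windows. The 3 windows below are shown because each holds the narrower form; all matches are in capitals and every other base is in lower case. The windows lie at chr9:107296409-107296708 (plus strand) for Cish, chr17:24877981-24878280 (plus strand) for Igfals and chr16:23981234-23981533 (minus strand) for Bcl6, and all are written 5′ to 3′.
Cish: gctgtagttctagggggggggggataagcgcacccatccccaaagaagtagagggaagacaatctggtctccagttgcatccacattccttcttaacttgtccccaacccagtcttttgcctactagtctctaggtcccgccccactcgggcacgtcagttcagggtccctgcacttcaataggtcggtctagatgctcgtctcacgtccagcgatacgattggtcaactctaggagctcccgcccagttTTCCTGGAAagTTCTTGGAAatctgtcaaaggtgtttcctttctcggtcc
Igfals: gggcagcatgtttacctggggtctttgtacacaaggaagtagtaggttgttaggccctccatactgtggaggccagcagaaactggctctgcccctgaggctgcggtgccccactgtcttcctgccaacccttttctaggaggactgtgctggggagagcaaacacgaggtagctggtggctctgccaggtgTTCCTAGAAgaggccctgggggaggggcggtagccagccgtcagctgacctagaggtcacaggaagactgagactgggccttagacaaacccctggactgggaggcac
Bcl6: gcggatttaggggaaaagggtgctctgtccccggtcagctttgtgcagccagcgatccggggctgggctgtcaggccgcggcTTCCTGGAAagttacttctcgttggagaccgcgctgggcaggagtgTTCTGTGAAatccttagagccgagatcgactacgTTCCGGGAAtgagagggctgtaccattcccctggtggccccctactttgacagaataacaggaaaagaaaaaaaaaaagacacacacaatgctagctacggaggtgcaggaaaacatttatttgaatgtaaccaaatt
The Cish window held 2 matches, TTCCTGGAA at position 1 and TTCTTGGAA at position 12 counted from the start. The Igfals window held TTCCTAGAA 58 bases before the start. The Bcl6 window held TTCCTGGAA, TTCTGTGAA and TTCCGGGAA at 168, 122 and 88 bases before it. No match stood in the windows of Ghr, Stat5b, Igf1, Hsd3b5 or Cyp2d9, which says only that these letters are not in those 300 bases. The RefSeq window of Hsd3b5 (chr3:98645485-98645784, minus strand) lies 15233 bases outside the GENCODE span of the gene given below, and is counted among the 13 all the same; the other 12 windows lie in or across the edge of their genes' spans. Of the 3 matched genes, Igfals was called lower at 6 mg/kg, while the tested probes of Cish and Bcl6 were not called.

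The transcript of the receptor fell at 6 mg/kg. Ghr (chr15:3317760-3583492, minus strand, protein coding) was read by probes 54382 and 29091. Probe 54382 had 325, 310, 284 and 263 CPM at 6 mg/kg, against 825, 705, 644 and 1301 CPM in control. Probe 29091 had 343, 279, 277 and 170 CPM at 6 mg/kg, against 436, 391, 430 and 488 CPM in control. Both probes were lower in every mouse at 6 mg/kg than in every control mouse, an absence of overlap that 26.8% of all probes showed in either direction. The log2 change was -1.56 (SE 0.46, adjusted p 0.0223) for probe 54382 and -0.71 (SE 0.16, adjusted p 0.0042) for probe 29091. The call of probe 54382 was lost without a count filter, without control replicate 4 and without dose_6 replicate 3 or 4. With plate row in the fit neither probe was called, at -2.73 (adjusted p 0.0565) and -0.89 (adjusted p 0.107); over all settings adjusted p ranged from 0.000406 to 0.0796 for the first probe and from 0.00047 to 0.107 for the second.

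At the lower doses the receptor probes overlapped the controls. Their means over 4 mice (± SD) in control and at 0.03, 0.3 and 3 mg/kg were 869 ± 298, 688 ± 225, 658 ± 326 and 779 ± 462 CPM for probe 54382. For probe 29091 the same means were 436 ± 40.1, 436 ± 19.2, 445 ± 35.8 and 460 ± 65.9 CPM. The probes disagreed in 1 library: dose_3 replicate 4 had 136 CPM of probe 54382 and 548 CPM of probe 29091, a ratio of 0.249, against ratios of 0.946 to 2.66 in the other 19 libraries. Across those 19, the ratio was 0.946 to 1.55 at 6 mg/kg and 1.5 to 2.66 in control. It was 1.06 to 2.2 at 0.03 mg/kg, 1.01 to 2.32 at 0.3 mg/kg and 1.93 to 2.48 in the remaining 3 mg/kg libraries, so ratios near 1 were not limited to 6 mg/kg. Where the probes lie on the transcript was not used here, and the part of isoforms or of the library in this ratio was not tested.

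**Figure D2:**
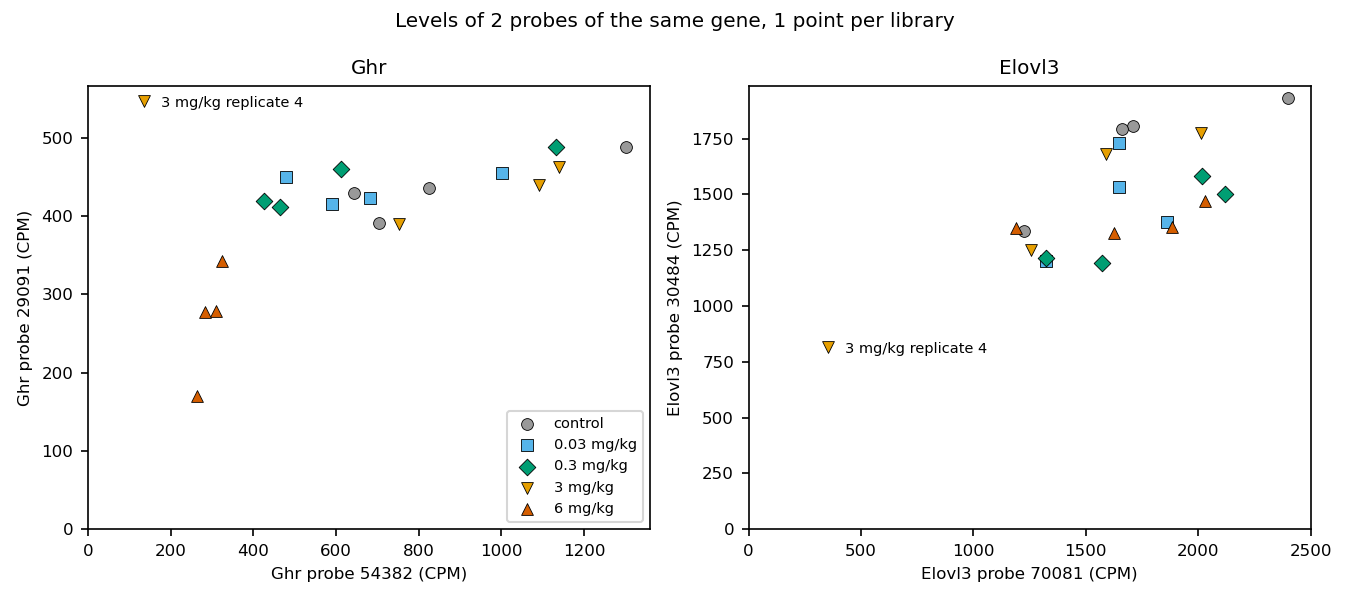
Level in CPM of one probe against the other for Ghr (left) and Elovl3 (right), with 1 point per library and both axes linear from 0. Symbols and colours mark the dose groups; dose_3 replicate 4 lies away from the other 19 libraries in both panels, with probe ratios of 0.249 and 0.433.

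Stat5b (chr11:100780731-100850724, minus strand, protein coding), the main growth hormone-activated transcription factor of male liver, was read by 1 probe. It had 6.83, 4.98, 5.79 and 7.39 CPM at 6 mg/kg, against 9.47, 10.8, 10.6 and 14.4 CPM in control. The groups did not overlap, but the log2 change of -0.85 (SE 0.34) had an adjusted p of 0.0809 and was not called. The call was made without dose_3 replicate 4 and in the 8 compared libraries alone, and adjusted p ranged from 0.00796 to 0.218 over all settings. The mean level was 11.3 ± 2.14, 10.4 ± 3.48, 9.25 ± 2.44, 7.39 ± 3.86 and 6.24 ± 1.07 CPM (SD, n = 4 each) in control and at 0.03, 0.3, 3 and 6 mg/kg. Its slope over dose rank was -0.22 log2 units per step (SE 0.07, adjusted p 0.0373), and it was called lower, in a test that called 17.8% of all genes, 7.24% with a negative slope. The slope's call was lost in 6 of the 20 fits that leave out 1 library: control replicate 4, dose_0.03 replicates 1 and 2, and dose_6 replicates 1, 2 and 3. It was also lost under scaling by total counts and with plate row in the fit (adjusted p 0.2). Of the 50-base windows of the longest Stat5b transcript 11.8% also occur in Stat5a transcripts.

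Among the feedback inhibitors, Socs2 showed the clearest fall. Socs2 (chr10:95385362-95417180, minus strand, protein coding) encodes a suppressor of cytokine signalling that binds the activated receptor. Probe 76117 had 10.5, 4.01, 4.13 and 3.09 CPM at 6 mg/kg, against 47.7, 26.3, 30.8 and 21.9 CPM in control. Every library at 6 mg/kg lay below every control library. The log2 changes of the 3 Socs2 probes were -2.55 (SE 0.49, adjusted p 0.00126) for 76117, -2.25 (SE 0.54, adjusted p 0.00654) for 31706 and -2.38 (SE 0.53, adjusted p 0.00358) for 66376, and the groups did not overlap for any of the 3. These 3 calls were kept in each setting that tested them and without each single library.

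Socs2 did not step down evenly with dose. Probe 76117 averaged 31.7 ± 11.3 CPM in control, 17.3 ± 6.77 at 0.03, 29.4 ± 15.7 at 0.3, 28.7 ± 11.2 at 3 and 5.44 ± 3.43 CPM at 6 mg/kg (SD, n = 4 each). At 0.03 mg/kg the 4 mice had 23.5, 21.9, 15.04 and 8.78 CPM of this probe, overlapping the controls at their lower end. The log2 changes at 0.03 mg/kg were -0.87, -0.90 and -1.09 for the 3 probes, each with an adjusted p of 1, and no probe of the whole table was called at that dose. For probes 31706 and 66376 the groups at 0.03 mg/kg and control did not overlap, which 3.51% of all probes showed at that dose. At 0.3 and 3 mg/kg the changes of the 3 probes lay between -0.33 and 0.08 and none was called. The transcript shares 18.4% of its 50-base windows with the transcripts of Gm8000 and Gm9847.

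Cish (chr9:107296026-107302784, plus strand, protein coding), another inducible inhibitor of the same receptor, was near the lower limit of the assay. Probe 64362, which did not pass the count filter and was not tested, had 2, 1, 5 and 7 counts at 6 mg/kg, against 27, 7, 32 and 4 counts in control. Probe 80422 had 0, 9, 3 and 0 counts at 6 mg/kg, against 22, 12, 42 and 0 counts in control. The groups overlapped for both probes, since the lowest control mice had as few counts as mice at 6 mg/kg. The log2 change of probe 80422 against control was -2.89 (SE 1.05, adjusted p 1) at 0.03 mg/kg, -1.43 (SE 0.89, adjusted p 0.682) at 0.3 mg/kg, -2.28 (SE 1.02, adjusted p 0.371) at 3 mg/kg and -2.66 (SE 1.04, adjusted p 0.0746) at 6 mg/kg. None was called, and leaving out control replicate 4 or dose_6 replicate 2 made the call at 6 mg/kg, with adjusted p between 0.0309 and 0.935 over all settings. Probe 64362 had a value in 20 of the other fits, counting the fit of summed probes, where the value is of both Cish probes together. In these 20 the log2 change at 6 mg/kg lay between -2.69 and -2.00. It was called in 17, with adjusted p between 0.0082 and 0.0852. The summed probes, at -2.44 (adjusted p 0.0239), were among the 17. A probe that enters a test through the group in which it is high is not independent of that difference. Counts of probe 80422 were also highest in control, so the values of both Cish probes are given as a description.

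Igf1 and Igfals, the circulating arm of the pathway, fell at 6 mg/kg by less than Socs2, each gene read by its main probe. Igf1 (chr10:87858265-87937042, plus strand, protein coding) encodes insulin-like growth factor 1, the main liver-made mediator of growth hormone. Probe 32078 had 57.6, 50.1, 47.1 and 42.9 CPM at 6 mg/kg, against 96.1, 84.9, 97.0 and 76.0 CPM in control. No library at 6 mg/kg reached the lowest control. The log2 change was -0.84 (SE 0.13, adjusted p 0.000109), and the call was lost only with plate row in the fit, where the change was -0.66 with adjusted p 0.124; adjusted p ranged from 2.16e-09 to 0.124 over all settings. In control and at 0.03, 0.3 and 3 mg/kg the means were 88.5 ± 10, 81.8 ± 3.27, 76.0 ± 6.30 and 78.3 ± 9.88 CPM (SD, n = 4 each), and each of these doses overlapped control. The slope over dose rank was -0.17 log2 units per step (SE 0.04, adjusted p 0.00287) and was called lower, but not with plate row in the fit (-0.19, adjusted p 0.0977).

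The second Igf1 probe, 31083, carried few counts. It had 2, 5, 1 and 0 counts at 6 mg/kg, against 14, 3, 13 and 5 counts in control, so the groups overlapped. Its log2 change of -2.15 (SE 0.63, adjusted p 0.0201) was called, but not without control replicate 1 or 3 or dose_6 replicate 3 or 4, and not with plate row in the fit, with adjusted p between 0.00706 and 0.147 over all settings. With at most 5 counts at 6 mg/kg, probe 31083 entered the test through the groups in which it was higher. As stated above for Cish, such a probe is not independent of the difference, so its call is given as a description. The changes of both Igf1 probes were negative at 6 mg/kg, and the better-covered probe gave the smaller change. That shared direction is not counted as separate evidence.

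Igfals (chr17:24865997-24882010, plus strand, protein coding) encodes the acid-labile subunit, which holds IGF1 and its binding protein together in plasma. It had 3.11, 1.82, 1.42 and 2.00 CPM at 6 mg/kg, against 3.24, 4.06, 6.03 and 4.28 CPM in control. The groups touched without overlapping, the highest mouse at 6 mg/kg lying just under the lowest control. The log2 change was -1.08 (SE 0.33, adjusted p 0.0247). That call was lost under scaling by total counts, with plate row in the fit, and without control replicate 3 or 4 or dose_6 replicate 2, 3 or 4, and adjusted p ranged from 0.00641 to 0.192 over all settings. At 3 mg/kg the 4 mice had 4.69, 2.48, 1.87 and 6.57 CPM, a spread that covered both the control and the 6 mg/kg values.

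The remaining members are a repressor and 3 enzymes. Bcl6 (chr16:23965052-23988852, minus strand, protein coding) encodes a transcriptional repressor that growth hormone lowers through STAT5 and that binds many of the same sites. Its level was 43.7, 38.8, 39.8 and 65.1 CPM at 6 mg/kg, against 19.8, 13.5, 58.1 and 168 CPM in control. The control mice alone spanned more than the range of the 6 mg/kg mice on both sides. The log2 change at 6 mg/kg was -0.47 (SE 0.55, adjusted p 0.568) and was not called; with plate row in the fit it was 0.20 and without control replicate 4, the mouse at 168 CPM, it was 0.64 (adjusted p 0.341), so no direction is given. At 0.03 mg/kg the 4 mice were close together at 124, 136, 130 and 144 CPM, inside the control range, with a log2 change of 1.04 (SE 0.55, adjusted p 1). That placing rests on control replicate 4: the 0.03 mg/kg mice lay above the other 3 controls, and without it the change was 2.13 (SE 0.46, adjusted p 0.655), still not called.

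Hsd3b5 (chr3:98618634-98630252, minus strand, protein coding), a steroid dehydrogenase of the male mouse liver, had the largest log2 change of the 15 tested probes at 6 mg/kg. It had 8.38, 4.13, 3.78 and 0.898 CPM at 6 mg/kg, against 33.9, 32.4, 45.2 and 39.5 CPM in control. The highest mouse at 6 mg/kg lay far below the lowest control. The log2 change was -3.15 (SE 0.45, adjusted p 7.7e-05), and the call held in every setting and without each single library, with changes between -3.70 and -2.78. With plate row in the fit the change was -3.28 (adjusted p 0.0261), the highest adjusted p of any setting.

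The fall of Hsd3b5 was uneven among mice at 3 mg/kg. Its level was 32.4 to 45.2 CPM in control, 39.0 to 42.7 CPM at 0.03 and 36.8 to 44.5 CPM at 0.3 mg/kg, and the 4 mice at 3 mg/kg had 38.0, 29.7, 22.9 and 7.90 CPM. The lowest of the 4 was dose_3 replicate 4, the library that stands apart, and its level fell within the range of the 6 mg/kg mice. The log2 change at 3 mg/kg was -0.62 (SE 0.40, adjusted p 0.556), and -0.32 (SE 0.18, adjusted p 0.521) without the libraries that stand apart. The slope over dose rank was -0.60 log2 units per step (SE 0.16, adjusted p 0.0142) and was called lower, but not with plate row in the fit (-0.58, adjusted p 0.194). Hsd3b5 shares 21.2% of its 50-base windows with transcripts of 8 other genes, Hsd3b1, Hsd3b4 and Hsd3b6 among them, so its counts may hold reads of these paralogs.

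Elovl3 (chr19:46131897-46135694, plus strand, protein coding), which elongates very long chain fatty acids and is male-biased in mouse liver, did not follow Hsd3b5. Probe 70081 had 1624, 1882, 2030 and 1188 CPM at 6 mg/kg, against 1711, 1223, 2398 and 1662 CPM in control. Probe 30484 had 1329, 1355, 1470 and 1348 CPM at 6 mg/kg, against 1808, 1335, 1930 and 1791 CPM in control. The groups overlapped for both probes, and the log2 changes were -0.06 (SE 0.34, adjusted p 0.924) and -0.32 (SE 0.19, adjusted p 0.248). With plate row in the fit the first was 0.47, so its direction is not given. In dose_3 replicate 4 the level was 353 CPM for probe 70081 and 816 CPM for probe 30484, below all other libraries, and their ratio of 0.433 lay outside the 0.882 to 1.41 of the other 19.

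Cyp2d9 (chr15:82433437-82456845, plus strand, protein coding), a male-biased steroid hydroxylase, was the only member gene called higher. It had 140, 144, 147 and 133 CPM at 6 mg/kg, against 80.2, 92.9, 103 and 84.4 CPM in control. All 4 mice at 6 mg/kg lay above all 4 controls. The log2 change was 0.65 (SE 0.18, adjusted p 0.0139), which was called in every setting and without each single library, with changes between 0.60 and 1.32 and adjusted p between 0.00143 and 0.0498. At 0.3 mg/kg the 4 mice had 125, 161, 133 and 87.6 CPM, with a log2 change of 0.49 (SE 0.18, adjusted p 0.522) that was not called. At 3 mg/kg the level was 79.3, 83.7, 97.0 and 135 CPM, the last in dose_3 replicate 4. Of its 50-base windows 29% also occur in transcripts of 11 other genes, mostly of the Cyp2d family.

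**Figure D3:**
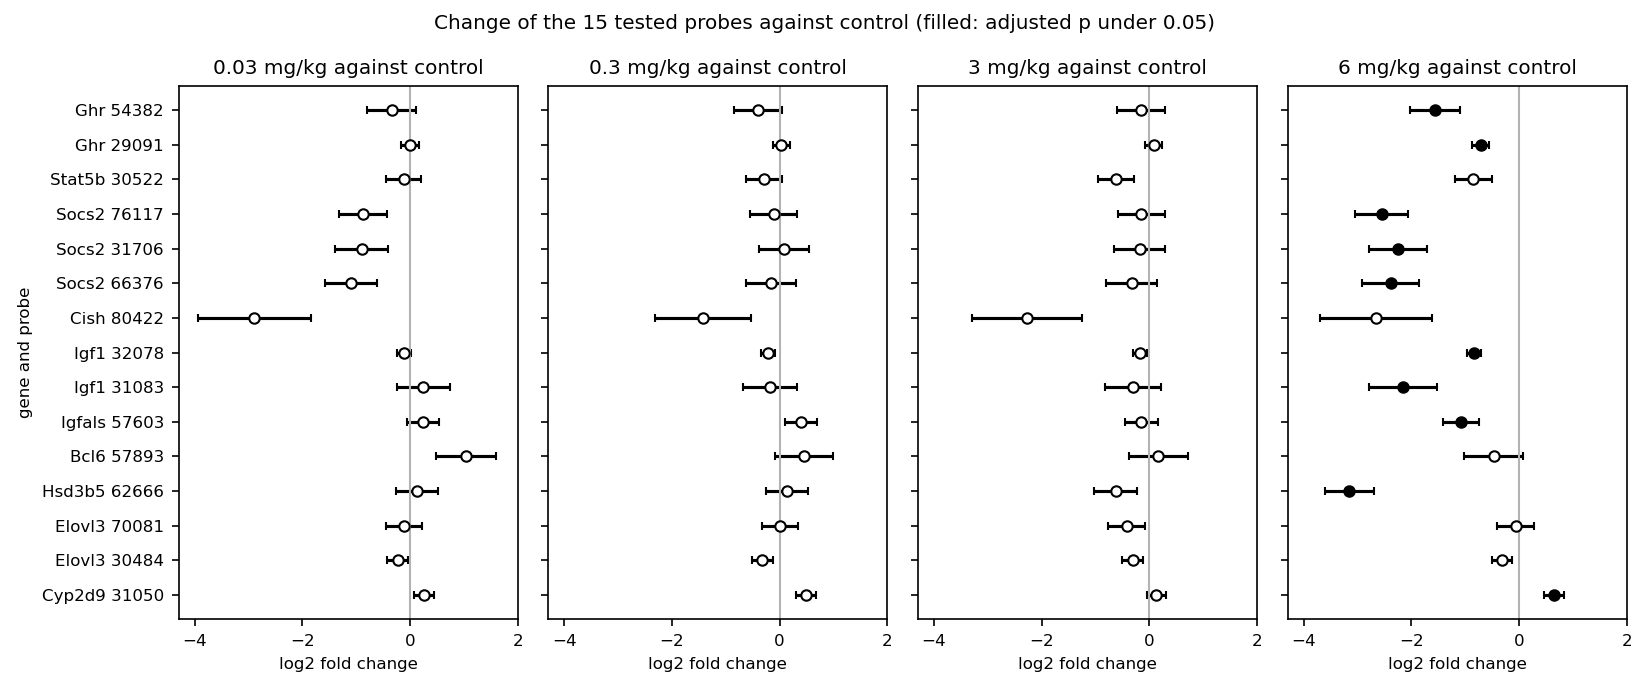
Log2 fold change against control (horizontal axis) of the 15 tested probes (vertical axis) at 0.03, 0.3, 3 and 6 mg/kg. Points are edgeR estimates with bars of 1 SE, filled where the adjusted p was under 0.05. Filled points occur only in the panel of 6 mg/kg, 9 to the left of 0 and 1 to the right. At that dose 20.3% of all probes were called, 8.73% lower and 11.6% higher. The 9 include Igf1 probe 31083, which had few counts and whose call is given as a description.

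The contrast between the upper doses asks what the step to 6 mg/kg added, and all 8 of its libraries lie in plate row B. Socs2, Igf1 and Hsd3b5 were called lower at 6 mg/kg than at 3 mg/kg and no member gene was called higher, where 6.96% of all genes were called, 3.77% higher and 3.19% lower. The median log2 change was -0.66 over the 9 member genes and 0.01 over all genes. Hsd3b5 changed by -2.53 (SE 0.44, adjusted p 0.00329), with 8.38, 4.13, 3.78 and 0.898 CPM at 6 mg/kg, against 38.0, 29.7, 22.9 and 7.90 CPM at 3 mg/kg, so that 1 mouse of the lower dose overlapped. Socs2 probe 76117 changed by -2.40 (SE 0.49, adjusted p 0.00804) and Igf1 probe 32078 by -0.66 (SE 0.13, adjusted p 0.00488), both without overlap, which 11.1% of all probes showed in this contrast. Socs2 probes 31706 and 66376 were called at -2.07 (adjusted p 0.0282) and -2.05 (adjusted p 0.0267), but their groups overlapped. Each of these calls was kept in 15 of the 20 fits that leave out 1 library. Igf1 probe 31083 overlapped and was not called, at -1.84 (adjusted p 0.0887). Ghr probe 29091 was also called at -0.78 (SE 0.16, adjusted p 0.00771), while its main probe 54382 had -1.40 (SE 0.46, adjusted p 0.0703). When the 8 libraries of this contrast were fitted alone, no member gene was called, and the whole table had 11 calls in place of 950. Without the 2 libraries that stand apart, 5 member genes were called, Ghr probe 54382 at -1.68 (adjusted p 0.0073) and Cyp2d9 at 0.75 (adjusted p 0.00337) joining the 3, but the share of all genes called was then also larger, at 17.7%, 8.37% higher and 9.31% lower.

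Without the same 2 libraries, 7 of the 9 member genes were called at 6 mg/kg against control, 1 higher and 6 lower, in a fit that called 28.3% of all genes, 13.4% higher and 14.9% lower. Stat5b then passed at -0.93 (SE 0.26, adjusted p 0.00796), while Bcl6 and Elovl3 were still not called. Cish probe 64362, which entered this fit, is left out of the count for the reason given above. At 0.03, 0.3 and 3 mg/kg 0 of the 9 genes were called by edgeR without these libraries either, where it called 0.00979%, 0% and 2.77% of all genes.

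Other genes of the pathway were read from lists written by function. The lists were chosen with earlier results of these data known, so their counts and medians are a description. Of 20 genes of growth hormone receptor signalling 15 were tested by their main probe, and at 6 mg/kg 1 rose and 5 fell, with a median log2 change of -0.22. Beside them, 10.9% of all genes tested by their main probe were called higher at this dose and 9.64% lower. Jak2, the receptor-bound kinase, averaged 19.1 ± 3.02 CPM at 6 mg/kg and 26.1 ± 3.74 CPM in control (SD, n = 4 each; log2 change -0.45, adjusted p 0.0411). Stat5a, the close relative of Stat5b, averaged 6.55 ± 2.59 CPM at 6 mg/kg and 9.34 ± 2.04 CPM in control (log2 change -0.50, adjusted p 0.143) and was not called. The adaptor Shc1 fell by 0.99 (adjusted p 0.000801) and the inhibitor Socs5 by 0.99 (adjusted p 0.0255) on the log2 scale. Irs2, an adaptor of the insulin receptor, rose by 1.20 (adjusted p 0.0022). Socs3, an inhibitor induced by cytokines, was too low to be tested, at 0.19 ± 0.171 CPM at 6 mg/kg and 1.81 ± 1.82 CPM in control. At 3 mg/kg 1 gene of the list, Shc1, was called lower (log2 change -0.82, adjusted p 0.0266), where 1.54% of all genes were called.

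Of the IGF axis, the receptors and plasma binding proteins around IGF1, 9 of 14 genes were tested. At 6 mg/kg edgeR called 0 of these 9, beside 20.5% of all genes. Of the 9, 3 had an unadjusted p under 0.05, and the median was -0.05. Igfbp1, a binding protein regulated by insulin, averaged 7.64 CPM at 6 mg/kg and 5.16 CPM in control (log2 change 0.58, SE 0.46, adjusted p 0.386). Of 12 transcription factors of the liver programme 11 were tested, and at 6 mg/kg 2 rose and 1 fell, with a median of 0.27. Over all genes, 10.9% were called higher and 9.64% lower. Cebpb, 1 of the 2 that rose, changed by 0.92 on the log2 scale (adjusted p 0.00719), and Cebpa fell by 1.34 (adjusted p 6.81e-06). Cebpa averaged 360 CPM at 6 mg/kg and 912 CPM in control; it encodes a factor of the differentiated hepatocyte.

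Genes known to differ between the sexes in mouse liver moved in both directions. Over all genes, 10.9% were called higher and 9.64% lower at 6 mg/kg. Of 19 tested male-biased genes 2 rose and 9 fell at 6 mg/kg, with a median of -0.94. Serpina4-ps1 averaged 9.51 CPM at 6 mg/kg and 67.6 CPM in control (log2 change -2.83, adjusted p 0.00275). Cspg5 fell by 1.29 (adjusted p 0.000646) and Ttc39c by 0.94 (adjusted p 0.00233), whereas the fatty acid hydroxylases Cyp4a12a and Cyp4a12b rose by 0.87 and 1.06 (adjusted p 0.00237 and 0.000518). Of 17 tested female-biased genes 9 rose and 1, Tox, fell by 1.79 (adjusted p 0.00329), with a median of 1.86. The largest change was that of Cyp4a14, with 114 CPM at 6 mg/kg and 1.58 CPM in control (log2 change 6.19, adjusted p 1.04e-07). Cyp3a41b rose by 1.86 (adjusted p 7.48e-06) and Sult1e1, the estrogen sulfotransferase, by 3.08 (adjusted p 1.64e-05). Cyp4a14 is also a known target of the fatty acid receptor PPARα, as is Acot3, so this list is not a readout of growth hormone alone. At 3 mg/kg, where edgeR called 1.54% of all genes, it called 0 male-biased genes (2 at an unadjusted p under 0.05). At that dose 2 female-biased genes rose, Cyp3a41b by 1.33 (adjusted p 0.00222) and Sult1e1 by 2.32 (adjusted p 0.00376).

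**Figure D4:**
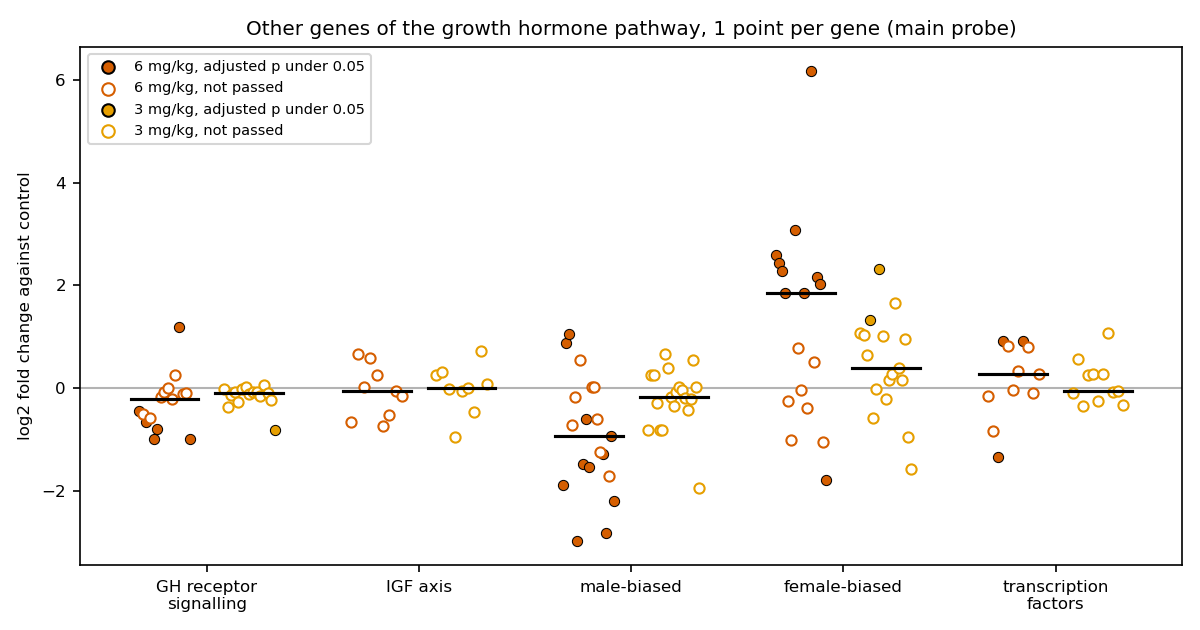
Log2 fold change against control (vertical axis) of the tested genes of 5 functional lists at 6 mg/kg (left column of each pair) and 3 mg/kg (right column), 1 point per gene by its main probe. The lists were chosen with earlier results of these data known. Filled points had an adjusted p under 0.05 and bars are medians; at 6 mg/kg the medians are -0.94 for male-biased and 1.86 for female-biased genes.

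The near paralogs of the 3 enzymes took no common direction. Of 13 tested at 6 mg/kg 4 rose and 4 fell, where 10.9% of all genes were called higher and 9.64% lower. Hsd3b7, Hsd3b2 and Hsd3b3 fell by 0.88, 0.85 and 0.62 on the log2 scale (adjusted p 0.000208, 0.000249 and 0.00275), all by less than Hsd3b5. Elovl6 rose by 1.95 (adjusted p 4.29e-07) and Elovl1 by 0.57 (adjusted p 0.0425), while Elovl3 was not called. Cyp2d12 and Cyp2d22 rose by 2.19 and 0.72 (adjusted p 0.000981 and 0.0042) and Cyp2d40 fell by 0.93 (adjusted p 0.00697).

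Markers of cells other than hepatocytes were read by the same test. At 6 mg/kg it called 10.9% of all genes higher and 9.64% lower, and the counts of called markers below stand beside these shares. The summed level of 10 lymphocyte and neutrophil markers was 14.3 to 27.9 CPM in control, 30.8 to 54.7 CPM at 3 mg/kg and 41.0 to 66.5 CPM at 6 mg/kg; at 6 mg/kg 1 of 7 tested rose and 2 fell. S100a8, a neutrophil and monocyte gene, was the riser, with 46.7 CPM at 6 mg/kg and 1.53 CPM in control (log2 change 4.92, adjusted p 2.9e-07). Without S100a8 the other 9 markers summed to 13.1 to 24.8 CPM in control, 14.4 to 18.1 CPM at 3 mg/kg and 8.18 to 16.2 CPM at 6 mg/kg, so the higher sum rests on that gene, and the median log2 change of the 7 tested at 6 mg/kg was -1.06. The 10 Kupffer cell markers summed to 72.3 to 118 CPM at 6 mg/kg and 112 to 163 CPM in control, with 0 of 8 tested higher and 1 lower. The 8 stellate cell markers summed to 67.8 to 99.7 CPM at 6 mg/kg and 107 to 141 CPM in control, with 1 of 7 tested higher and 3 lower. The 8 endothelial markers summed to 193 to 280 CPM at 6 mg/kg and 198 to 255 CPM in control, with 1 of 7 tested higher and 0 lower. The 5 cholangiocyte markers summed to 22.1 to 32.7 CPM at 6 mg/kg and 24.5 to 31.5 CPM in control, and the 5 erythroid markers to 24.1 to 43.7 CPM at 6 mg/kg and 24 to 54.5 CPM in control. Exocrine pancreas markers were near the floor, at 0.59 to 1.68 CPM at 6 mg/kg, where 4 of 7 were at 0 in all mice, and 3.88 to 6.35 CPM in control. The part of these cells in the changes above was not tested.

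The patterns most like those of Socs2 and Hsd3b5 over the 20 libraries were sought among 3711 main probes with a mean of at least 20 CPM. Levels of Socs2 went most closely with Serpina4-ps1 (Pearson r 0.92, Spearman rho 0.87), Otulin (0.92, 0.90) and Abhd17b (0.89, 0.89). Those of Hsd3b5 went most closely with the carboxylesterase gene Ces3b (0.99, 0.88), the aldehyde oxidase gene Aox3 (0.99, 0.94) and Ahsg, which encodes the plasma protein fetuin-A (0.97, 0.73). Without the 2 libraries that stand apart, r was 0.86 to 0.90 for the first 3 genes and 0.94 to 0.99 for the last 3. These values describe libraries that share the low levels at 6 mg/kg, the scaling and the plate, and carry no test.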

How the data were processed

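The authors deposited raw counts per TempO-Seq probe for 20 livers, made with Bowtie and GRCm38.p5 per the submitters' processing notes; no further settings were found. The members and gene lists were chosen with earlier results of these data known. Probes passing filterByExpr (edgeR 4.0.16, R 4.3.3; 99.8% of counts) were fitted with a robust quasi-likelihood model over all 20 libraries, with Benjamini-Hochberg adjustment over 14122 probes. SE is the log2 change divided by the square root of F. Counts, with intervals or floors of 3 counts, cover counting error only. Alternatives were other scalings and filters, DESeq2 1.42.0, limma-voom 3.58.1, the compared libraries alone, plate row, summed probes, dose in mg/kg, and each library left out; fits without dose_3 replicate 4 and dose_6 replicate 4 were chosen after seeing the data. Called members of the pathway lists with the smallest p, up to 3 per direction, and all called paralogs are named, apart from some left out of the text. No copied library was found among 30 pairs of the same group (lowest chi-square per degree of freedom 4.04). The model was also run on simulated counts, drawn without a plate row effect or an outlying library, so that run cannot speak to the dependence on either. Gene positions are from GENCODE M21 (GRCm38).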

Additional observations from a re-analysis of the deposited data

Results flagged for a closer look

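Of 80 groups of 4 libraries (16 probes, 5 groups each) 5 held a library whose gap to its neighbour exceeded Dixon's 95% limit, and chance flags about 1 in 20 groups. Socs2 probe 76117 was at 10.5 CPM in dose_6 replicate 1, above the 3.09 to 4.13 CPM of the other 3. Both Cish probes were high in dose_0.3 replicate 1, at 2.38 CPM for probe 64362 (others 0.516 to 0.752 CPM) and 2.18 CPM for probe 80422 (others 0.224 to 0.502 CPM). Cish probe 80422 was at 1.70 CPM in dose_3 replicate 3, above 0 to 0.285 CPM in the others. Igf1 probe 32078 was at 77.0 CPM in dose_0.03 replicate 1, below 82.8 to 84.0 CPM in the others.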

How the results depend on the processing

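The alternative fits gave 2627 values of member probes, 1 per probe, comparison and fit. Among these values no called change reversed, and 81 changed sign without passing under either setting. The number of probes called at 6 mg/kg was 2867, with 2120 to 4461 when 1 library was left out, most without dose_3 replicate 4 and fewest without control replicate 4, and 508 with plate row in the fit; member genes called were 6, with 4 to 8 and 3 (4 to 7 when Cish, untested in the fit of all libraries by its main probe, is not counted), and 8 without the 2 libraries that stand apart, 1 of them Cish. With plate row the 3 were Socs2, Hsd3b5 and Cyp2d9. At 3 mg/kg 211 probes were called, with 124 to 279 when 1 library was left out, 387 by DESeq2, 44 in the compared libraries alone, 1 with plate row and 379 without the 2 libraries that stand apart. At 0.3 mg/kg edgeR called 0 (1175 at an unadjusted p under 0.05), with 0 to 1 when 1 library was left out, 28 by DESeq2 and 4 in the compared libraries alone; at 0.03 mg/kg it called 0 (457 unadjusted), with 2 by DESeq2 and 1 without the 2 libraries. For 6 against 3 mg/kg the count was 950, with 302 (without dose_3 replicate 1) to 3105 (without dose_3 replicate 4), 1439 by DESeq2, 11 in the compared libraries alone and 2478 without the 2 libraries; member genes were 3, with 3 to 5, 0 alone and 5 without the 2. For the slope 2541 probes were called, with 1883 to 3014 and 603 with plate row. Member genes were 3, with 2 to 5, 5 by limma-voom, 1 with plate row (Cyp2d9, higher) and 6 with dose in mg/kg. The member counts by limma-voom and with dose in mg/kg stand without the share of all genes called in those fits. They are a description and are not read as a result about the members. The cause of these shifts was not tested. Scaling by total counts moved the median of all probes to 0.15 at 6 mg/kg, 0.16 at 0.3 mg/kg and 0.14 for 6 against 3 mg/kg; under it 1894 probes were called higher and 811 lower in 6 mg/kg livers, against 1634 and 1233 under the main scaling. No paired analysis applied, since each library came from a different mouse. The labels give replicates no number, and they are numbered here in the order of the wells within each group. Depth limits Cish and Igf1 probe 31083, which had few counts.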
